A study of Mus musculus with 25 samples.

Results

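The direct comparison of interleukin-13 (IL-13) with interleukin-4 (IL-4) in mouse bone marrow-derived macrophages (BMDMs) rested on 6 of the 25 RNA-seq samples of the series, 3 IL-4-treated and 3 IL-13-treated, chosen by their labels. Marrow cells of C57BL/6 mice were matured into BMDMs with M-CSF, the growth factor that drives monocytes to become macrophages, at 25 ng/ml over 4 days, and then received 10 ng/ml of recombinant IL-4 or IL-13 for 12 h. Doses were matched by weight. A further 3 control BMDM samples, grown the same way and labelled with a culture of 4 h, entered the fit and placed each gene against resting cells. All 3 groups therefore shared the M-CSF culture, and the control and the treated groups differed both in cytokine and in time in culture. The sources used here do not say which samples came from separate mice or cultures, so p-values measure the spread between these samples.

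IL-4 and IL-13 are the cytokines that drive alternative (M2) activation of macrophages. IL-4 can signal through a type I receptor, made of the IL-4 receptor alpha chain (Il4ra) and the common gamma chain (Il2rg), and through a type II receptor, made of Il4ra and Il13ra1, whereas IL-13 uses the type II receptor. Janus kinases bound to these chains phosphorylate STAT6, which dimerises, enters the nucleus and binds palindromic elements near genes such as Arg1, Chil3 and Mrc1. SOCS proteins, including Cish, are induced by STATs and restrain the same receptors. The comparison asks how far the transcriptomes that the 2 cytokines gave differed.

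Few genes passed the test, and more of them were higher than lower with IL-13. Of 9252 genes tested, 16 were higher (0.173%) and 3 were lower (0.0324%) in IL-13-treated than in IL-4-treated BMDMs at a threshold of 0.05 on the false discovery rate (FDR, the Benjamini-Hochberg adjusted p of edgeR's quasi-likelihood test). At an unadjusted p under 0.05, 335 genes (3.62%) were higher and 308 (3.33%) lower. Leaving out 1 treated library moved the calls to between 5 (without IL-4 replicate 3) and 30 (without IL-13 replicate 1) higher genes and between 1 (without IL-4 replicate 2) and 7 (without IL-13 replicate 1) lower genes, and DESeq2 called 7 and 2. Among the 16 called higher were the lectin-like chitinase family member Chil3, the mannose receptor Mrc1, the checkpoint ligands Pdcd1lg2 (PD-L2) and Cd274 (PD-L1), the arginine transporter Slc7a2, the transcription factor Irf4, the feedback inhibitor Cish and the kinase Jak2. The 3 lower genes were Mamdc2, the microRNA entry Mir6236 and Gm20594. At the cutoffs that the study applied to each cytokine against control, which add a log2-fold change of 0.7 or more to an FDR no greater than 0.01, there were 5 higher genes (0.054%) and 1 lower gene (0.0108%).

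**Figure D1:**
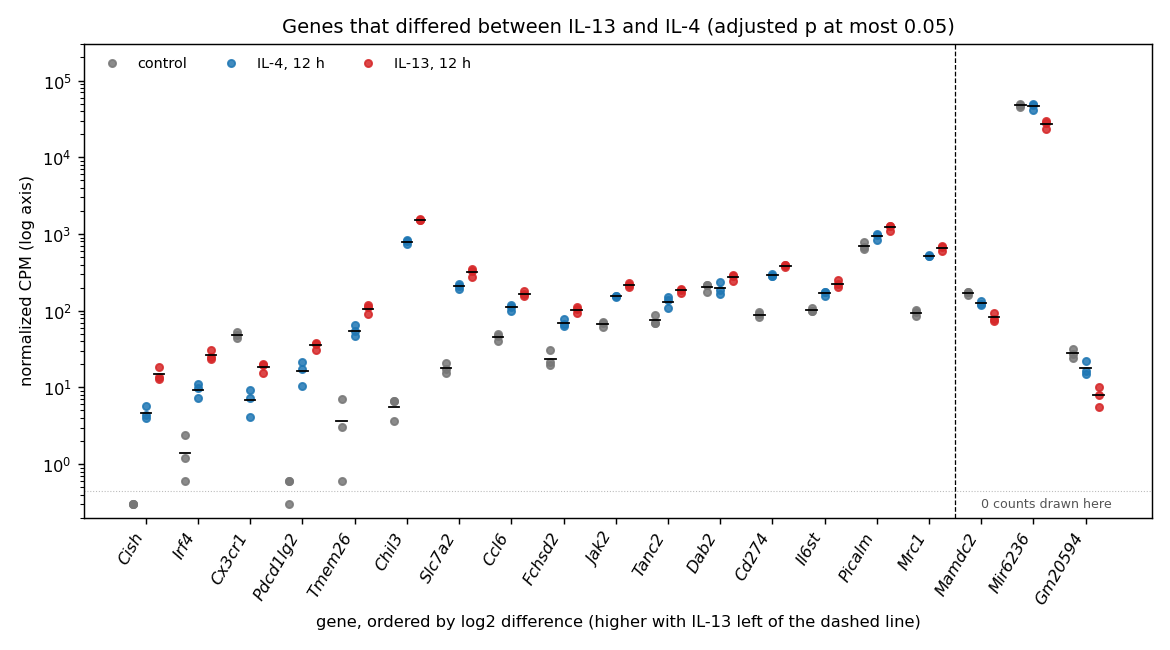
Normalized CPM (log axis) of the 19 genes that differed between IL-13 and IL-4, ordered by log2 difference, with 1 point per sample and a bar at each group mean; samples with 0 counts are drawn under the dotted line and have no bar. In each of the 19 genes the 3 IL-13 samples lie wholly above (left of the dashed line) or below the 3 IL-4 samples.

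The largest difference was in Cish (chr9:107296026-107302784 of mm10), which encodes a SOCS family protein. In CPM, read counts scaled to the size of each library, it was at 0 in the 3 control samples, at 5.80, 4.31 and 3.96 CPM in the IL-4 samples and at 18.4, 13.6 and 12.8 CPM in the IL-13 samples. The IL-13 samples were all above the IL-4 samples, with a log2 difference of 1.63 (SE 0.34, FDR = 0.014). The call was lost without IL-4 replicate 1, 2 or 3 or IL-13 replicate 1, while the difference stayed between 1.46 and 1.82. Irf4 (chr13:30749226-30766976), a factor required for M2 polarisation in mice, had 11, 9.84 and 7.26 CPM with IL-4 and 23.4, 31.1 and 25.0 CPM with IL-13, against 0.60 to 2.39 CPM in the control. Its log2 difference was 1.49 (SE 0.25, FDR = 4.1e-04), or 2.80-fold.

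Chil3 (Ym1; chr3:106147554-106167564) had the smallest error of the genes higher with IL-13. It had 739, 807 and 830.4 CPM in IL-4-treated BMDMs, and 1509, 1547 and 1517 CPM in IL-13-treated BMDMs. Control samples had 3.65 to 6.58 CPM. The IL-13 level was thus 1.93-fold the IL-4 level, a log2 difference of 0.95 (SE 0.08, FDR = 8.6e-13), and the samples of each cytokine lay close together. Tmem26 (chr10:68723646-68782650), which encodes a transmembrane protein, differed by as much on the log2 scale (0.95, SE 0.15, FDR = 1.9e-04). Its values were 54.0, 64.6 and 46.2 CPM with IL-4 and 111, 89.3 and 120.1 CPM with IL-13.

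Slc7a2 (chr8:40862396-40922308), a carrier that supplies arginine to arginase, had 194, 220.3 and 209 CPM with IL-4 and 274, 334 and 349 CPM with IL-13 (log2 difference 0.62, SE 0.10, FDR = 1.2e-04). Ccl6 (chr11:83587882-83593087), a CC chemokine of myeloid cells, had 98.1, 119 and 113 CPM with IL-4 and 154, 179 and 166 CPM with IL-13 (0.60, SE 0.11, FDR = 0.0018), a call lost without IL-4 replicate 1. Mrc1 (CD206; chr2:14229392-14332057) differed less, with 510.01, 525 and 510.2 CPM in IL-4-treated and 594, 676 and 699 CPM in IL-13-treated BMDMs. Its log2 difference of 0.35 (SE 0.08, FDR = 0.049) sat just inside the threshold. The remaining higher genes had smaller or less certain differences: Fchsd2, a regulator of membrane trafficking (0.56, FDR = 0.035), Tanc2, a scaffold protein (0.47, FDR = 0.048), Dab2, an endocytic adaptor (0.46, FDR = 0.048), Il6st, the shared receptor chain gp130 (0.42, FDR = 0.049), and Picalm, a clathrin assembly protein (0.37, FDR = 0.035). Each of these 5 and Mrc1 lost its call in 3 to 5 of the 6 fits that left out a treated library, with log2 differences of 0.30 to 0.41 for Mrc1 in those fits.

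Jak2, Cd274 and Pdcd1lg2 are neighbours on the + strand of chromosome 19, at chr19:29251828-29313080, chr19:29367455-29388095 and chr19:29410919-29471161. Jak2, a Janus kinase, had 150.3, 156 and 158 CPM with IL-4 and 203, 216 and 229 CPM with IL-13, a log2 difference of 0.48 (SE 0.10, FDR = 0.0078). Cd274 had 285, 297 and 284.5 CPM with IL-4 and 396, 367 and 397 CPM with IL-13 (0.42, SE 0.09, FDR = 0.011). Pdcd1lg2 had the largest log2 difference of the 3, with 21.5, 17.2 and 10.6 CPM with IL-4 and 36.7, 30.5 and 38.4 CPM with IL-13 (1.08, SE 0.21, FDR = 0.0056). The call of Jak2 was lost without IL-4 replicate 1, 2 or 3 or IL-13 replicate 3 (log2 differences of 0.44 to 0.53 over the 6 fits), that of Cd274 without IL-4 replicate 1, 2 or 3 (0.40 to 0.46) and that of Pdcd1lg2 without IL-4 replicate 2 or 3 (0.86 to 1.32). Of the other tested genes around them, Insl6 and Plgrkt on the opposite strand differed by 0.08 (95% interval -0.73 to 0.89) and 0.11 (-0.20 to 0.43), and Ric1 by -0.07 (-0.32 to 0.17), and none was called. Beside Ccl6, the chemokine Ccl9 had 194, 186 and 192 CPM with IL-4 and 249, 279 and 232 CPM with IL-13, which did not overlap but missed the threshold (0.41, FDR = 0.066). Ccl3 and Ccl4, further along, differed by 0.02 and 0.03.

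**Figure D2:**
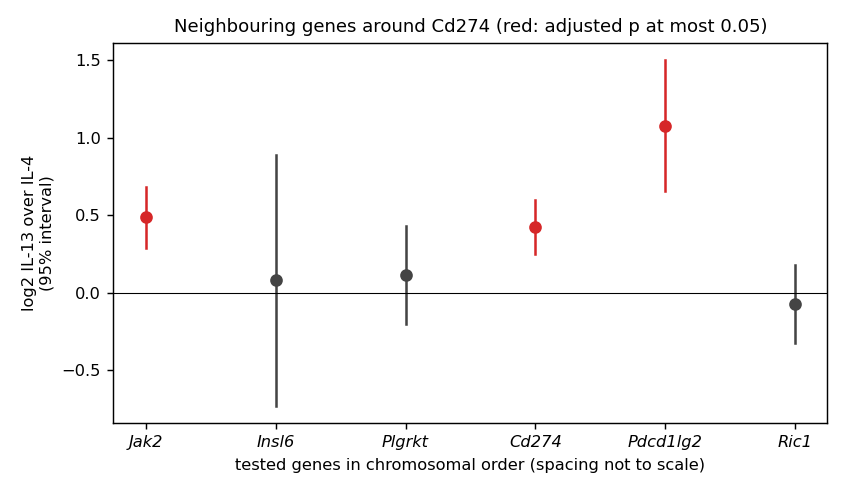
Log2 difference (IL-13 over IL-4) with its 95% interval for the 6 tested genes from Jak2 to Ric1 on chromosome 19, in chromosomal order. The intervals of Jak2, Cd274 and Pdcd1lg2 (red) lie above 0, and those of Insl6, Plgrkt and Ric1 include it.

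Promoter windows of 4 genes higher with IL-13 that hold a palindrome of the STAT type are shown. Dab2 also held such a palindrome, beginning 72 bases before the start, and its window is not shown. The motifs searched were TTCNNNNGAA, the spacing STAT6 is known to prefer, and TTCNNNGAA, the spacing of other STATs; each reads as itself on both strands, and no window held overlapping matches of them. Windows run from 250 bases before to 50 bases after the RefSeq transcription start (build GRCm38.p6, the assembly of mm10), are written 5′ to 3′ on the strand of the gene, and have the matches in capitals.
Chil3 (chr3:106167515-106167814, - strand): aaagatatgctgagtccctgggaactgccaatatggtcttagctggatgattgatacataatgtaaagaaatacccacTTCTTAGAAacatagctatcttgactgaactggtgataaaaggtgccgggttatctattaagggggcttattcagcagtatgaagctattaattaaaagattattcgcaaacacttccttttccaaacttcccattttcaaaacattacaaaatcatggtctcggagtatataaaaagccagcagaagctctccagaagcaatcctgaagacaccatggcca
Cish (chr9:107296409-107296708, + strand): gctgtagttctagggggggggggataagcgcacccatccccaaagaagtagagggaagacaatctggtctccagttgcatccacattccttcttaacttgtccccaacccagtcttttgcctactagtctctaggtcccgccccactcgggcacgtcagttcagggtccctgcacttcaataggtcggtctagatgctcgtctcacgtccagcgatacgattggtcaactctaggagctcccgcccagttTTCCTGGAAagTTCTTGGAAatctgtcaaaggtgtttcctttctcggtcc
Tmem26 (chr10:68723496-68723795, + strand): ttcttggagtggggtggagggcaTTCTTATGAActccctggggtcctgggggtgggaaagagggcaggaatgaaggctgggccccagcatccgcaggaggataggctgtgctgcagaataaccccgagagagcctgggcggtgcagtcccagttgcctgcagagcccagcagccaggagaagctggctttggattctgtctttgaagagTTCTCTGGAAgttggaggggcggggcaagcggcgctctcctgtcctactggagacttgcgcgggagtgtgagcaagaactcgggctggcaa
Pdcd1lg2 (chr19:29410669-29410968, + strand): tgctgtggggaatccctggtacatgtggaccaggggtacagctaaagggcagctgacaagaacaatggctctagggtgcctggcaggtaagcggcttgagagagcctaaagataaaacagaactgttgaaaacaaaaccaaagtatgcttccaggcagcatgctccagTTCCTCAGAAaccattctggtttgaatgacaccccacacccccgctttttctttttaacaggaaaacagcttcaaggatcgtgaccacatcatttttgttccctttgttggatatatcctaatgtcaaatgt

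In Tmem26 the TTCNNNNGAA matches began 227 and 41 bases before the start, and in Pdcd1lg2 1 match began 82 bases before it. The TTCNNNGAA match of Chil3 began 172 bases before the start, and Cish held 2 such matches from its start onwards. Of the 15 higher genes with a window, 2 held TTCNNNNGAA and 3 held TTCNNNGAA, the third being Dab2. Over all 32851 windows, 6.95% and 8.30% held them. Genes tested held them in 6.39% and 8.24% of cases, genes that rose with the cytokines (defined below) in 10% and 11%, and genes that fell in 4.97% and 5.59%. These are matches of letters, not measured binding, and Irf4, Jak2, Cd274, Mrc1 and the other higher genes with a window held none of either.

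In the mRNA of receptors and kinases, Jak2 was the only gene to pass the test between the 2 treated groups. These counts hold no measure of protein or of phosphorylation. Of 14 genes listed for the receptors, Janus kinases, STATs and their modulators, 12 were tested, and Jak2 alone was called (0.173% of all genes tested were higher). Il4ra, the chain that both receptor types share, had 104, 105 and 102 CPM with IL-4 and 109.5, 109, and 114 CPM with IL-13, a log2 difference of 0.09 (95% interval -0.13 to 0.31). Il13ra1 differed by -0.07 (-0.43 to 0.29) and Il2rg by 0.30 (-0.11 to 0.72). Stat6 had 331, 311 and 331 CPM with IL-4 and 315, 300.2 and 275 CPM with IL-13 (-0.13, -0.31 to 0.05). Jak1 and Tyk2 differed by 0.11 and 0.08. For 11 of the 12, Jak2 among them, the whole interval lay within a log2 difference of 0.7 in either direction, and that of Il2rg reached 0.72. Over all genes tested the share inside was 71.1%, but it depended on level. It was 72.4% at 10 to 50 CPM, 99.4% at 50 to 200 CPM and 98.8% above 200 CPM. Most of the 12 were above 50 CPM, so 11 of 12 is near the share for their level. Il13ra2, the decoy receptor of IL-13, had at most 1 count in any of these samples and was not tested, nor was Jak3.

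The SOCS family had 7 tested members, of which Cish was called (0.173% of all genes tested were higher). Socs2 had 3.48, 9.23 and 5.94 CPM with IL-4 and 13.9, 13.6 and 13.9 CPM with IL-13, and Socs1 had 18.0, 12.9 and 7.92 against 19.6, 22.0 and 22.2 CPM. In both genes the IL-13 samples were all above the IL-4 samples, but neither passed the test (log2 differences 1.15 and 0.70, FDR = 0.21 and 0.48). Socs4, Socs5, Socs6 and Socs7 differed by -0.25 to 0.19 with overlapping samples. Socs3 had too few counts to be tested.

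Of 36 listed markers of alternative activation, 19 had enough counts to be tested, 5 were higher with IL-13 (Chil3, Mrc1, Pdcd1lg2, Cd274 and Slc7a2; 0.173% of all genes tested were higher) and 0 were lower. The number higher was 2 to 6 when 1 treated library was left out. The median log2 difference of the 19 was 0.10, against a median within 0.01 of 0 over all genes tested. Arg1, the arginase that hydrolyses arginine, was not counted in any control sample, and had 32.5, 30.1 and 28.4 CPM with IL-4 and 47.5, 47.5 and 33.9 CPM with IL-13. Its samples did not overlap, and its log2 difference of 0.49 (95% interval 0.14 to 0.84) missed the threshold (FDR = 0.42). Other markers that rose over control were not called: Atp6v0d2, a subunit of the vacuolar proton pump, differed by 0.20 (0.04 to 0.35), Clec7a (dectin-1, a receptor for fungal glucans) by 0.18 (0.01 to 0.34), Flt1, a receptor of vascular endothelial growth factor, by 0.19 (-0.25 to 0.63) and Matk, a kinase, by 0.07 (-0.19 to 0.32). Msr1, a scavenger receptor, had 63.2, 53.5 and 58.7 CPM with IL-4 and 36.1, 48.0 and 46.7 CPM with IL-13 (-0.42, FDR = 0.41). The interval lay within a log2 difference of 0.7 in either direction for 13 of the 19 markers, near the share over all genes (71.1%). Retnla (Fizz1), Ccl17, Ccl22, Ccl24, Chil4, Mgl2 and Clec10a, all commonly used M2 markers, were too sparse to test: Retnla had 4, 2 and 4 counts with IL-4 and 1, 0 and 2 with IL-13.

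**Figure D3:**
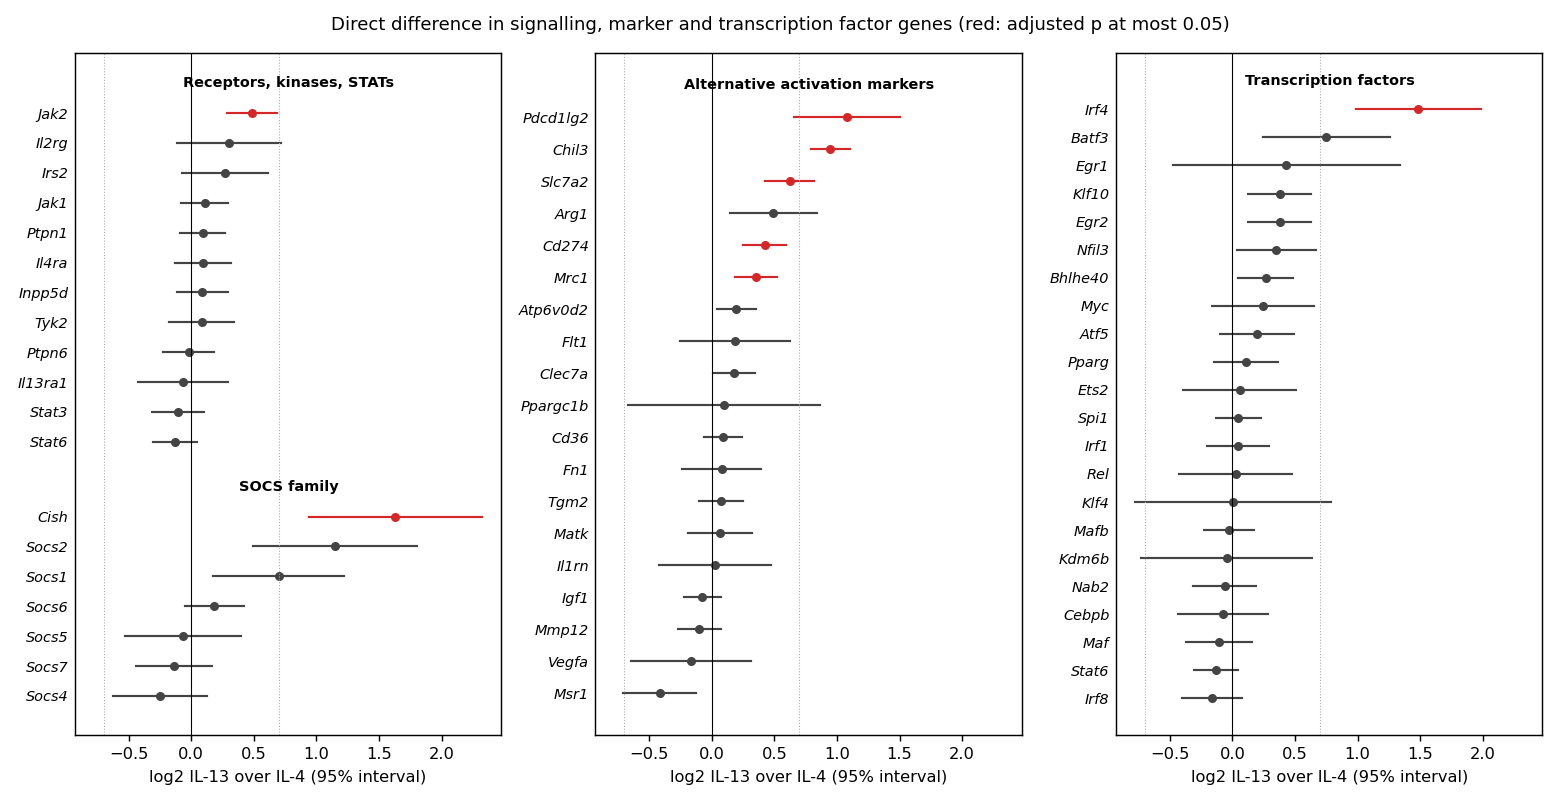
Log2 difference (IL-13 over IL-4) with its 95% interval for each tested gene of 4 lists, sorted within each list; genes with an FDR of at most 0.05 are red, and dotted lines mark a log2 difference of 0.7 in either direction. Of the 59 genes, 40 have an interval that includes 0, 18 lie above it, of which Jak2, Cish, Irf4 and 5 markers were called, and Msr1 lies below it. Over all genes tested, 3.62% were higher and 3.33% lower at an unadjusted p under 0.05 in edgeR's test. The lists were chosen with earlier results of these data known.

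Among 24 listed transcription factors, 22 were tested and Irf4 was called (0.173% of all genes tested were higher). Egr2, an early target of STAT6, had 77.2, 78.8 and 91.8 CPM with IL-4 and 99.4, 120.4 and 101 CPM with IL-13 (0.38, 95% interval 0.12 to 0.63, FDR = 0.39). Batf3 (0.75, FDR = 0.39) and Nfil3 (0.35, FDR = 0.64), both basic leucine zipper factors, likewise had no overlap between the cytokines and were not called. Pparg, Irf1 and Myc, which rose over control, differed by 0.11 (-0.15 to 0.37), 0.04 (-0.20 to 0.29) and 0.25 (-0.16 to 0.65). The median over the 22 was 0.05. A list of 8 factors that the study assigns to IL-13 was chosen on these samples, so that the direction of the list is no independent evidence. Of the 7 tested, all had a positive difference (median 0.38), Picalm was called, and Klf10 (0.38, FDR = 0.38), Csrnp1 (0.41, FDR = 0.75), Ahr (0.52, FDR = 0.83), Ciita (0.40, FDR = 0.92), Mllt3 (0.29, FDR = 0.84) and Gnl3 (0.30, FDR = 0.69) were not. Myrf, not tested, had 6, 5 and 5 counts with IL-4 and 13, 13 and 10 with IL-13.

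The differences were set against the response to the cytokines as such. Genes were called responsive from the mean of IL-4 and IL-13 against control at those study cutoffs, a rule that gives both cytokines equal weight. It found 256 genes that rose (2.77%) and 229 that fell (2.48%). Since the control was cultured for another time, cytokine and culture time cannot be told apart in this response. Control libraries also held more counts antisense to Rn45s (0.0386% to 0.0543% of Rn45s counts against 0.00603% to 0.0214% in the treated libraries), and the part of this in the response was not tested. The control has no weight in the direct contrast, but it entered the normalization, the filter and the estimate of spread, and the 6 treated samples alone gave 15 higher and 3 lower genes of 8955 tested.

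In genes that rose, IL-13 gave the higher level more often than IL-4. The direct difference was positive in 215 of the 256 (84.0%, against 49.3% of all genes tested) and its median was 0.18. All 3 IL-13 samples lay above all 3 IL-4 samples in 74 of them (28.9%, against 5.2% of all genes), and below in 3 (1.17%, against 5.64%). Of the 16 genes higher with IL-13, 13 were among the 256, and 0 of the 256 were lower. The difference was larger in rising genes with a larger mean response: the median was 0.12 in 107 genes with a log2-fold change of 0.7 to 1, 0.20 in 116 genes between 1 and 2 and 0.40 in 33 genes above 2. It was of like size when genes were chosen by IL-4 against control alone (205 genes, median 0.17, 80.5% positive), a choice that favours IL-4.

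Even so, most of the rising genes were not separated by the test. In 243 of the 256 there was no call, and in 195 the interval lay within a log2 difference of 0.7 in either direction, near the share over all genes (71.1%). The 10 with the largest mean response were Arg1, Chil3, Cish, Pdcd1lg2, Rasgrp1, Ablim1, Tmem26, Flt1, F10 and Slc7a2, of which 5 were called. Rasgrp1, an activator of Ras, Ablim1, an actin-binding protein, and F10, coagulation factor X, differed by 0.40 (-0.34 to 1.14), 0.13 (-0.33 to 0.60) and 0.12 (-0.36 to 0.60) with overlapping samples. Tfrc, the transferrin receptor, had 609, 591 and 599 CPM with IL-4 and 622, 828 and 757 CPM with IL-13 (0.30, FDR = 0.21).

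**Figure D4:**
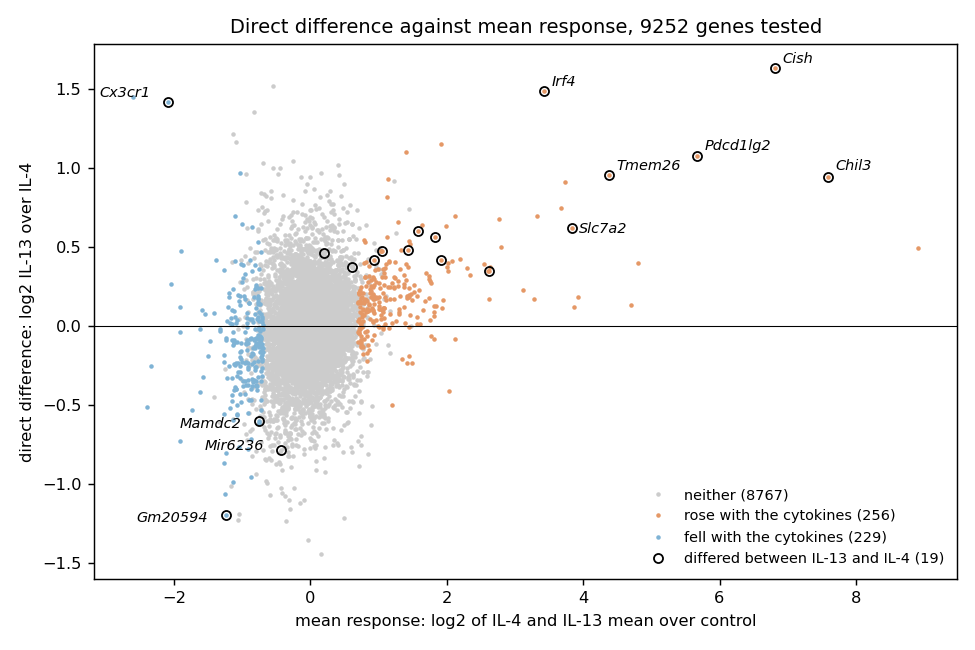
Direct difference (log2 IL-13 over IL-4, vertical axis) against the mean response (log2 of the mean of both cytokines over control, horizontal axis) for the 9252 genes tested, coloured by response, with the 19 genes that differed circled. Rising genes (orange) lie mostly above 0, and Cx3cr1 is the circled gene that fell with the cytokines and was higher with IL-13.

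Genes that fell gave a picture that depended on how they were chosen. With the mean response, the direct difference was negative in 153 of 229 (66.8%, against 50.7% of all genes), its median was -0.11, and all IL-13 samples lay below all IL-4 samples in 32 (14.0%, against 5.64%). The median did not grow steadily with the size of the fall. It was -0.106 in 136 genes that fell by a log2 of 0.7 to 1, -0.115 in 88 between 1 and 2 and 0.268 in 5 above 2. With genes chosen by IL-4 against control alone, 152 fell, and the median was 0.04 with 44.1% negative; chosen by IL-13 alone, 220 fell, and the median was -0.23. IL-13 replicates also differed more among themselves (chi-square per degree of freedom of 2.12 to 3.44 between pairs) than IL-4 replicates (1.46 to 2.09). The part of this spread in the medians of falling and of rising genes was not tested. The direction was thus not settled for falling genes. In rising genes the median stayed positive when they were chosen by IL-4 alone (0.17), which favours IL-4. A choice by IL-13 alone favours larger changes with IL-13, so its medians in either direction are no further evidence.

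**Figure D5:**
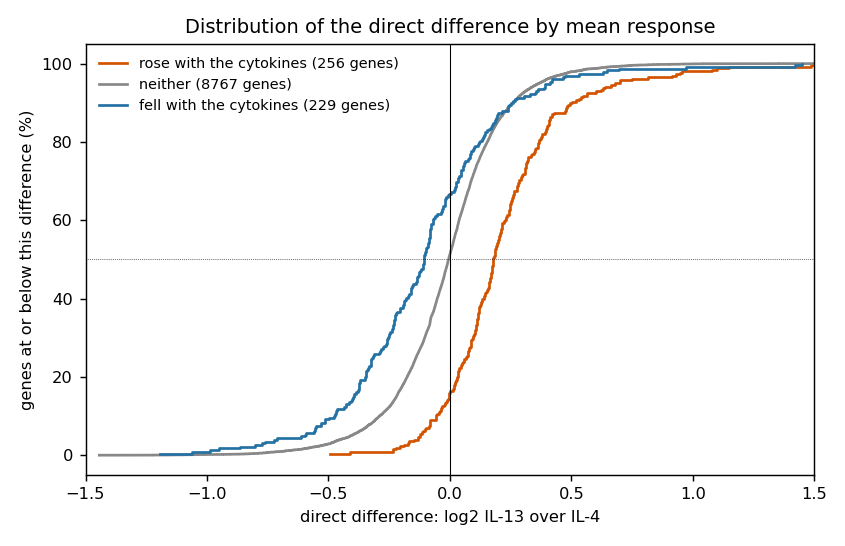
Cumulative share of genes (vertical axis, %) at or below each direct difference (log2 IL-13 over IL-4, horizontal axis) for genes that rose, fell or did neither by the mean of both cytokines. The curve of the 256 rising genes is shifted to the right (median 0.18), that of the 229 falling genes to the left (median -0.11), and that of the 8767 others is centred near 0.

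Of the falling genes, 1 was higher with IL-13 and 2 were lower. Cx3cr1 (RefSeq chr9:120048683-120068296), the fractalkine receptor of monocytes and tissue macrophages, had 43.7, 52.3 and 47.7 CPM in control BMDMs, 4.06, 9.23 and 7.26 CPM with IL-4 and 20.3, 15.3 and 19.5 CPM with IL-13. It fell with both cytokines and stayed 2.67-fold higher with IL-13 (log2 difference 1.42, SE 0.28, FDR = 0.0067). Without IL-4 replicate 1 or 3 it was not called, at 1.13 to 1.71 over the 6 fits. The GENCODE gene model of Cx3cr1 spans other genes, of which Csrnp1, Gorasp1 and Xirp1 lie on the same strand. Csrnp1 differed by 0.41 (FDR = 0.75) and Gorasp1 by 0.08 (FDR = 0.97), and Xirp1 was not tested, so reads in the shared stretch cannot be assigned with certainty. Mamdc2 (chr19:23302609-23448442), which encodes an extracellular proteoglycan, had 159, 177 and 176 CPM in control BMDMs, 124, 132 and 118 CPM with IL-4 and 74.1, 78.6 and 93.4 CPM with IL-13 (-0.60, SE 0.12, FDR = 0.0051), a call lost without IL-4 replicate 2. Gm20594 had 22.0, 14.8 and 16.5 CPM with IL-4 and 10.1, 7.91 and 5.56 CPM with IL-13 (-1.19, SE 0.28, FDR = 0.047); it resembles a mitochondrial ribosomal RNA stretch, so its reads could come from another copy and its value is uncertain. It was called in 1 of the 6 fits that left out a treated library.

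Several strongly falling genes were not called. Cd14, the lipopolysaccharide coreceptor, lay at 299.9 to 353 CPM in control BMDMs, and at 81.2 to 90.5 CPM with IL-4 against 72.8 to 90.5 CPM with IL-13 (-0.03, 95% interval -0.28 to 0.21). Slc40a1 (ferroportin, the iron exporter) had 56.9, 59.1 and 40.9 CPM with IL-4 and 40.5, 53.7 and 37.8 CPM with IL-13 (-0.25, -0.56 to 0.06). Clec4n (dectin-2), at 0.66 to 1.85 CPM with IL-4 and 2.22 to 5.09 CPM with IL-13, did not overlap and had a log2 difference of 1.45 (95% interval 0.18 to 2.72), but did not pass the test (FDR = 0.62). Among falling genes with the smallest p-values that were not called, named after their values were seen, Sema4d, a semaphorin, had 111, 129.8 and 139.9 CPM with IL-4 and 86.7, 95.0 and 99.0 CPM with IL-13 (-0.44, FDR = 0.13). Cd200, an inhibitory ligand, had 38.9, 36.3 and 38.9 CPM with IL-4 and 24.1, 23.2 and 27.2 CPM with IL-13 (-0.61, FDR = 0.21).

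Mir6236, an entry of 123 bases annotated at chr9:110281287-110281409, took a large part of all counts. It had 41033, 50086 and 47690 CPM in IL-4-treated BMDMs, 23405, 29282 and 27920 CPM in IL-13-treated BMDMs and 45594 to 48982 CPM in the control. The IL-13 samples were all below the others, with a log2 difference of -0.78 (SE 0.08, FDR = 1.4e-10). In shares of counts other than Rn45s, that is 4.10% to 4.96% in IL-4-treated and 2.38% to 2.95% in IL-13-treated samples. Rn45s, the ribosomal precursor, took 30.8% to 39.8% of the counts in the IL-4 libraries and 31.1% to 39.4% in the IL-13 libraries. Libraries made this way do not separate a mature microRNA from a longer transcript over the same bases, so the value is that of the annotated stretch and its source was not tested. The annotated mature miR-6236 (GRCm38.p6, chr9:110281353-110281371, + strand) is shown with its seed, bases 2 to 8, in capitals.
mmu-miR-6236: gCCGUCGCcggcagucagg

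Other gene groups had no or single calls. No tested gene was called among MHC class II presentation (8 tested), interferon-induced genes (9), pattern recognition and scavenger receptors (25), iron handling (11), ribosome biogenesis (22), DNA replication and mitosis (27), cholesterol synthesis and lipid efflux (23) or immediate early genes (13). Over all genes tested, 0.173% were higher and 0.0324% lower. Of 7 tested chemokines Ccl6 was higher (0.173% of all genes tested were). All 7 differences were positive, against 49.3% of all genes, but those of Ccl3, Ccl4 and Cxcl16 were 0.01 to 0.03, and Ccl7, the largest at 0.63, was not called (FDR = 0.41). Of 12 genes of arginine and polyamine metabolism Slc7a2 was higher, against the same share of 0.173%. Replication and mitosis genes had a median of -0.13 with 20 of 27 negative (50.7% of all genes were), and members went both ways. Mcm5, a subunit of the replicative helicase, had 42.4, 38.8 and 37.6 CPM with IL-4 and 31.7, 31.1 and 28.9 CPM with IL-13 (-0.38, FDR = 0.65). Ccne2, a cyclin of S phase entry, had 5.80, 9.23 and 6.60 CPM with IL-4 and 10.8, 13.6 and 10.01 CPM with IL-13 (0.67, FDR = 0.67), and Ccna2, another cyclin, differed by 0.42 (FDR = 0.79).

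All 10 macrophage markers were tested, none was called, and each had an interval within a log2 difference of 0.7. Over all genes tested, 0.173% were higher and 0.0324% lower, and 71.1% had such an interval. That share was 99.4% at 50 to 200 CPM and 98.8% above 200 CPM, so neither count sets these markers apart from other well-expressed genes. Their summed level was 21398 to 22953 CPM in the IL-4 samples and 23950 to 24717 CPM in the IL-13 samples. Markers of other cells that a marrow culture can hold were low: in the treated samples summed dendritic cell markers reached at most 3.42 CPM, with Ccr7, Xcr1 and Siglech at 0, neutrophil markers 13.4 to 30.2 CPM, B and T cell markers 6.19 to 14.8 CPM, with 7 of 9 at 0, mast cell and granulocyte markers 1.71 to 6.40 CPM, erythroid markers at most 0.64 CPM, and fibroblast and stromal markers 70.7 to 132 CPM. In such bulk samples, fewer cells that express a gene and less RNA per cell cannot be told apart.

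The precision of the difference varied with the level of a gene. The 6 libraries held 2495719 to 2718848 counts on genes, of which 1556736 to 1776162 were left without Rn45s. The median SE of the log2 difference was 0.37 in 1418 genes under 10 CPM, 0.21 in 4607 genes at 10 to 50 CPM, 0.12 at 50 to 200 CPM and 0.09 above that. Over all genes the interval lay within a log2 difference of 0.7 for 6581 (71.1%), but for 2.89% of genes under 10 CPM, so that at low levels a missing call does not show that the cytokines acted alike. Across 6791 well-expressed genes the root mean square log2 distance between an IL-4 and an IL-13 sample was 0.278 to 0.33. Between IL-4 replicates it was 0.263 to 0.283, and between IL-13 replicates 0.284 to 0.341. The distance between cytokines thus reached above that of IL-4 replicates but not above that of IL-13 replicates. From control to treated samples it was 0.408 to 0.473.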

How the data were processed

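RNA was depleted of ribosomal RNA, made into strand-specific libraries and sequenced in pairs. The authors trimmed reads with Trimmomatic 0.33, aligned them to mm10 with STAR 2.5.1 and deposited whole-number read counts per gene, not normalized (CASAVA 1.8.2 and DESeq2 are also named in the submitters' notes). The annotation release is not given in the sources used here. The sense-strand counts were analysed. Rn45s was removed, and 24410 genes were left. The 9 samples (control, IL-4 and IL-13, 3 each) were fitted together in edgeR 4.0.16 (R 4.3.3) with TMM normalization, filterByExpr and a robust quasi-likelihood fit. The 9252 genes past the filter were tested for IL-13 minus IL-4, with Benjamini-Hochberg adjustment over all of them. Intervals are 95%. CPM of single tested genes use TMM library sizes and are compared within a gene only. Summed CPM of cell type markers use library totals without Rn45s and no TMM factor. The code was tested on simulated data.

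Named genes were the called genes with the largest log2 differences (up to 15 per direction, non-overlapping samples, at least 5 CPM), members of the signalling, SOCS, marker and factor lists, the 10 largest mean responses per direction, and up to 4 genes with the smallest p of each other list. The comparison, its members and the lists were chosen with earlier results of these data known. Positions are from GENCODE M21, in which 8917 of the tested symbols matched once, and promoter and microRNA sequences are from RefSeq GRCm38.p6. Alternatives were DESeq2 1.42.0, other normalizations, filters, strand and sample choices. Replicate pairs differed by more than counting noise, so no library was a duplicate.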

Additional observations from a re-analysis of the deposited data

How the results depend on the processing

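Leaving out 1 of the 6 treated libraries gave 5 to 30 higher and 1 to 7 lower genes, and 1 to 8 and 1 to 2 at the study cutoffs. The number higher was 10, 6 and 5 without IL-4 replicate 1, 2 and 3, and 30, 19 and 10 without IL-13 replicate 1, 2 and 3; the lower genes numbered 1 without IL-4 replicate 2 and 7 without IL-13 replicate 1. Chil3, Irf4, Tmem26, Slc7a2 and Mir6236 were called in all 6 of these fits, Ccl6 was lost without IL-4 replicate 1 and Mamdc2 without IL-4 replicate 2. Cish kept a log2 difference of 1.46 to 1.82 but was called in 2 of the fits, Jak2 in 2 (0.44 to 0.53), Cd274 in 3, Pdcd1lg2 and Cx3cr1 in 4, and Mrc1, Picalm, Il6st and Gm20594 in 1. In the same fits the intervals inside a log2 difference of 0.7 numbered 5790 to 6004, rising genes 249 to 257 with 5 to 20 higher and a median of 0.177 to 0.205, falling genes 214 to 256 with 0 to 4 lower and a median of -0.168 to -0.047, and calls among receptors 0 to 1, SOCS genes 0 to 1, markers 2 to 6, transcription factors 1 and IL-13 factors 0 to 1.

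DESeq2 called 7 higher and 2 lower genes (178 and 111 at an unadjusted p under 0.05; it set 6099 adjusted p to NA, among them those of Cish, Irf4, Pdcd1lg2 and Cx3cr1), with 2 higher at the study cutoffs, 7 higher rising genes, 152 falling genes of which 1 was lower, and 0 called SOCS genes, transcription factors and IL-13 factors; 9 of the 19 genes were called by both tools. Without the independent filter and outlier cutoff that set those adjusted p to NA, DESeq2 called 8 higher and 2 lower genes. With no filter beyond 1 count in edgeR, 5 genes were lower and the falling median was -0.088. With at least 10 counts in each treated sample, 10 were higher, 1 falling gene was lower and 0 SOCS genes were called. Cish, the SOCS gene called above, had 10, 7 and 6 counts with IL-4 and was not tested under this filter. The 0 SOCS calls there are therefore no failed test of Cish. Without Mir6236, tried after seeing the data, 0 genes were lower at the study cutoffs. Mir6236 was itself the 1 lower gene there, so this 0 follows from leaving it out. Choosing responsive genes with 1 cytokine, also tried after seeing the data, gave medians of 0.170 (IL-4) and 0.205 (IL-13) in rising genes; with IL-4 there were 152 falling genes, 0 of them lower, with a median of 0.035, and with IL-13 the median was -0.226. The cause of the other shifts was not tested. Replicate numbers did not pair the samples (correlations of 0.0535, -0.0752 and -0.0658 across genes), and with the replicate block 15 genes were higher and 3 lower. The 6 treated samples alone also gave 15 and 3. No setting turned the direction of a called gene.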
